A study of Drosophila melanogaster with 2 samples.

Results

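Peaks of the homeodomain protein CG34367 at the starts of non-coding RNA genes numbered 196 in the joint list of both libraries, which also holds 4011 other peaks far from protein-coding starts and 2063 peaks within 500 bp of one. They are 3.13% of the list. A peak was counted here when its summit lay within 500 bp of an annotated start of a gene of biotype ncRNA and more than 500 bp from every transcription start of a protein-coding gene. Such a summit, far from protein-coding starts, is called distal below, and 4207 joint summits were distal. A further 90 joint summits lay within 500 bp of both kinds of start and were left out by this choice. The 3 summits just inside the limit of 500 bp lay 495, 491 and 483 bp from the starts of CR44363, CR46322 and CR44749, with deposited signals of 1316, 537 and 310. The 3 just outside lay just over 500 bp, 505 bp and 508 bp from the starts of CR44619, CR43334 and marge, with signals of 2885, 192 and 168. At the protein-coding limit, the nearest counted summits lay 507, 519 and 549 bp from a protein-coding start (signals 143, 319 and 669), and the nearest ones not counted 496, 482 and 481 bp (signals 241, 200.0 and 574).

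ChIP-seq of the protein was done on whole pupae of Drosophila melanogaster aged 24 hours, from a transgenic line that stably expresses CG34367 with GFP at its C-terminus. The series has 1 group with 2 libraries, biological replicates 1 and 2, sonicated to 200 to 800 bp and precipitated with an antibody against GFP. The sex and the number of animals per library are not given, and all cell types of the animal are pooled, so strong binding in few cells and weak binding in many cannot be told apart. The joint list holds peaks that passed a threshold on the irreproducible discovery rate, a score of how well peak ranks repeat between libraries. The control that peaks were called against is not analysed here.

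Homeodomain proteins are transcription factors that bind short AT-rich sequences, often with the core TAAT. Long non-coding RNAs are transcribed like messenger RNAs but encode no known protein, and antisense RNAs run across a gene on its other strand. MicroRNAs are cut from a hairpin inside a longer transcript, so the annotated start of a microRNA is the end of the hairpin or of the mature RNA and not the place where transcription begins. Small nucleolar RNAs (snoRNAs) guide the modification of ribosomal RNA and, in Drosophila, many lie in the introns of host genes that encode no protein.

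The sequences of 6 summits are given as examples and do not stand for all of the peaks. They were chosen as the strongest at any non-coding start (CR44619), the strongest at hosts of microRNAs (CR31044 and CR43626), the strongest at an antisense RNA (asRNA:CR46145) and those at the long-studied genes Hsromega and flam. Each is the forward strand of the RefSeq Release 6 assembly, 5′ to 3′, for 50 bases on either side of the summit, and capitals mark TAAT on either strand, so ATTA as well. In dm6 coordinates they are chrX:12751345-12751445, chr3R:29214390-29214490, chr3R:9393848-9393948, chr3L:3248874-3248974, chr3R:21296275-21296375 and chrX:21631691-21631791.
lncRNA:CR44619: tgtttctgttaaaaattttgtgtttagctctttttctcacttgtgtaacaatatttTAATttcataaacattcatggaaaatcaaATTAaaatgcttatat
lncRNA:CR31044: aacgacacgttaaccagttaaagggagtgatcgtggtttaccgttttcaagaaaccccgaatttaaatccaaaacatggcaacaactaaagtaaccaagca
asRNA:CR46145: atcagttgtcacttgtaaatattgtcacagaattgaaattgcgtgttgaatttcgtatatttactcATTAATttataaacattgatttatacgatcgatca
lncRNA:CR43626: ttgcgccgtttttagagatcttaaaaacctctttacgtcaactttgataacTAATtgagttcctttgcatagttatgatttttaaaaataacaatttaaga
lncRNA:Hsromega: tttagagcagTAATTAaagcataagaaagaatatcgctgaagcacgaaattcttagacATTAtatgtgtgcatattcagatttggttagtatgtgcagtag
lncRNA:flam: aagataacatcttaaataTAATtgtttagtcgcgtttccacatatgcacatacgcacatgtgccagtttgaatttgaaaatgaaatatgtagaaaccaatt
The windows are AT-rich, from 21.8% GC at CR44619 to 39.6% GC at CR31044. The window at Hsromega holds TAAT in 3 places, those at CR44619 and asRNA:CR46145 in 2 each, those at CR43626 and flam in 1 each, and the window at CR31044, the second strongest of all, in 0.

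Distal summits lay at non-coding RNA starts 2.22 times as often as positions equally far from protein-coding starts. Of the 4207 distal summits, 196 lay there, a share of 4.66% with a 95% exact binomial interval of 4.04 to 5.34%, against 2.10% of all called bases at the same distances, which corresponds to 88.1 summits. The interval of the fold was 1.93 to 2.55. Taken singly, with as many of its strongest peaks as the joint list holds, replicate 1 had 177 such summits (4.27%, 2.05-fold) and replicate 2 had 193 (4.57%, 2.18-fold). The libraries averaged 4.42% ± 0.21 and 2.11-fold ± 0.0916 (SD, n = 2). Intervals cover counting error only and treat summits as independent, and with 1 group no test over samples was possible. The fold was 2.24 over bases that also shared the GC class, 2.09 over bases in the same kind of feature of protein-coding genes, 2.22 when each chromosome arm was compared with itself, and 2.24 with GC class and feature together. Of the peaks, 12 overlapped another counted peak, so the 196 form 190 separate regions.

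By arm, the counts were 45 on 2L, 37 on 2R, 54 on 3L, 36 on 3R and 24 on X, with folds of 2.18, 2.83, 2.49, 1.85 and 1.82. Each of these 5 folds had an interval above 1, and the intervals overlapped. Chromosome 4 had 6 distal joint summits and 0 at a non-coding start, which allows a share of up to 45.9%.

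The highest count per 100 bp lay just upstream of the starts. The 100 bp from 200 to 100 bp upstream held 36 summits, against 8.71 from equally distant bases (4.14-fold), and the 100 bp before the start held 21 (2.21-fold). The first 100 bp after the start held 14 (1.46-fold) and the next 100 bp 11 (1.22-fold), and the exact interval of both counts includes the number from equally distant bases. Further downstream the counts were higher again, with 23 summits from 300 to 400 bp (2.55-fold) and 28 from 500 to 600 bp (3.18-fold). The interval of these 28 summits, 18.6 to 40.4, overlaps that of the highest count, 25.2 to 49.8. In all, 112 of the 196 lay upstream of the nearest start (57.1%, 49.9 to 64.2%), 68 inside the gene and 16 beyond its 3′ end. From equally distant bases, the number per 100 bp went from 7.95 to 9.48 over the 500 bp upstream. Over the 500 bp downstream it went from 8.93 to 9.57. Equally distant bases thus lay upstream no more often than downstream, and the difference from the 57.1% was not tested. Within 100 bp of the start lay 35 (17.9%, 12.8 to 23.9%), against 21.7% of equally distant bases inside the same windows.

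**Figure D1:**
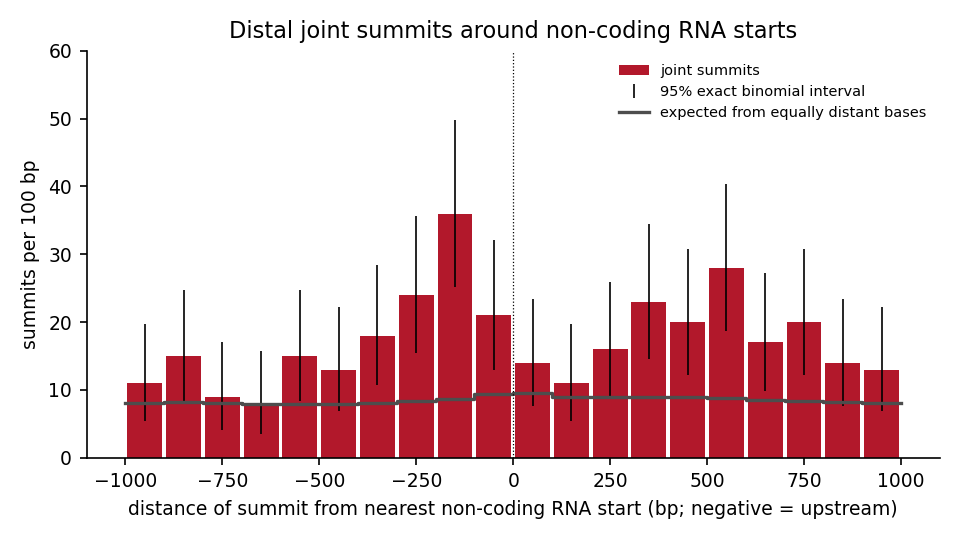
Joint summits more than 500 bp from protein-coding starts, counted per 100 bp by their distance from the nearest non-coding RNA start (x axis, bp, negative is upstream), with 95% exact binomial intervals as lines and the number from equally distant bases as the grey step. The highest bar, 36 summits from 200 to 100 bp upstream, stands against 8.71, and the bars from 0 to 200 bp, 14 and 11, lie close to the grey step.

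Starts were not the only part of these genes with more summits than equally distant bases. Leaving out microRNA genes, 187 distal summits lay within 500 bp of a 3′ end (2.39-fold, 2.06 to 2.74). This fold was no lower than that at starts, 2.28 without microRNA genes and 2.22 with them. Of these, 110 were more than 500 bp from every start (2.16-fold, 1.78 to 2.60), and starts away from every 3′ end were not counted separately. A further 159 summits lay inside a gene away from both ends (1.58-fold, 1.35 to 1.84). Outside the genes the fold was 1.33 (1.09 to 1.62) at 500 to 1000 bp, 1.11 (0.999 to 1.24) at 1000 to 3000 bp and 0.922 (0.907 to 0.936) beyond 3000 bp. The intervals for starts and for 3′ ends overlap over most of their length. These places were chosen after the counts at starts were seen.

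**Figure D2:**
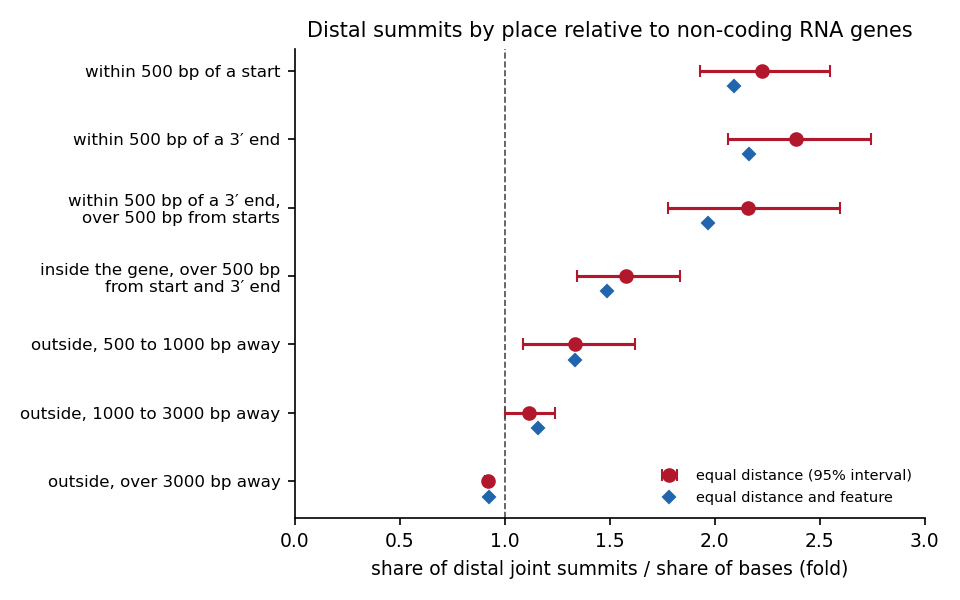
Fold of the share of distal joint summits over the share of bases at equal distance from protein-coding starts (x axis), for 7 kinds of place relative to non-coding RNA genes, with 95% intervals, and blue diamonds for bases that also share the kind of feature. The fold was 2.22 at starts, with microRNA genes included, and 2.39 at 3′ ends, without them. It was 2.16 at 3′ ends away from starts and 0.922 beyond 3000 bp.

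Most of the peaks lay between protein-coding genes. Outside protein-coding genes there were 137 of the 196 (69.9%, 63.0 to 76.2%), against 30.7% of the 4011 other distal joint peaks (29.3 to 32.2%) and 58.8% of equally distant bases near non-coding starts. Introns of protein-coding genes held 55 (28.1%), against 66.9% of other distal peaks, and exons held 4 (2.04%), against 2.34%. Seen from the features, 10.01% of distal summits outside protein-coding genes were at a non-coding start (2.45-fold, 2.07 to 2.86), and 2.01% of those in introns (1.52-fold, 1.15 to 1.97). Where the peak lay inside a protein-coding gene, the non-coding RNA ran on the other strand for 37 peaks, on the same strand for 21, and 1 peak lay in genes on both strands. The 37 include antisense RNAs, such as asRNA:CR46145. Strands of all non-coding genes inside protein-coding genes were not counted, so no preference for a strand is read from these numbers.

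Long non-coding RNAs made up the bulk of the genes. For 166 of the 196 peaks the nearest start belonged to a gene named as a long non-coding RNA, for 16 to an antisense RNA, for 12 to a microRNA, for 1 to a snoRNA host (Uhg4) and for 1 to the stable intronic RNA sisRNA:4. Summits at long non-coding RNA starts stood at 2.56-fold (2.19 to 2.97) over equally distant bases. For antisense RNAs, with 17 summits near any of their starts, the fold was 1.19 (0.693 to 1.90), and for microRNAs, with 12, it was 1.51 (0.778 to 2.63). Both intervals include 1, the difference from long non-coding RNAs was not tested, and the interval for antisense RNAs does not reach that for long non-coding RNAs. These class folds were matched for distance only and not for the feature of protein-coding genes. Over all classes the fold was 1.52 in introns and 2.45 outside protein-coding genes, and the part of feature in the class values was not tested.

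Counted by gene, 188 of the 2297 non-coding RNA genes with a start away from protein-coding starts had a distal joint summit within 500 bp of it, which is 8.18% (7.10 to 9.38%). Among protein-coding genes 2432 of 13945, or 17.4%, had a joint summit within 500 bp of a start. Taking each distinct non-coding start once, 212 of 2812 had one (7.54%), against 3.57% of equally distant bases. The share was 161 of 1694 long non-coding RNA genes (9.50%, 8.15 to 11.0%), 13 of 328 antisense RNA genes (3.96%, 2.13 to 6.68%) and 12 of 232 microRNA genes (5.17%, 2.70 to 8.86%). Of these genes, 18 had 2 counted peaks each and 0 had 3. Among them, CR44276 had peaks with joint signals of 435 and 158, one on either side of its start, and CR44588 had 186 and 151 in the same arrangement. At CR44544 the peaks (199.8 and 182) overlapped and shared 1 peak in each library. At several others of the 18 the peaks also overlapped or were shared with a neighbouring non-coding gene. Having 2 counted peaks thus does not always mean 2 separate places. The genes with a peak had a median length of 589 bp, against 663 bp for those without, and a median of 1 exon in both groups.

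**Figure D3:**
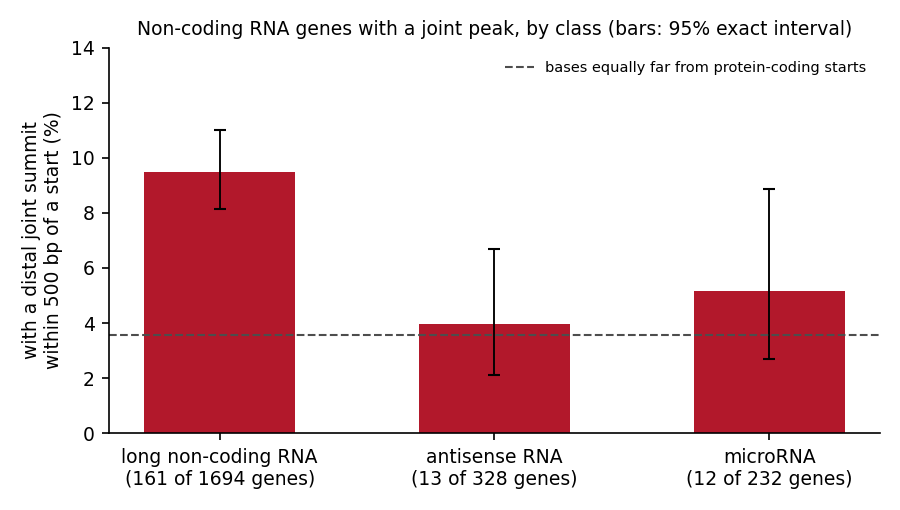
Percentage of non-coding RNA genes away from protein-coding starts with a distal joint summit within 500 bp of a start (y axis), by class, with 95% exact binomial intervals, and a dashed line at 3.57%, the share of bases as far from protein-coding starts as the distinct starts of all classes. Long non-coding RNA genes stand at 9.50% with an interval above the line, and the intervals of antisense RNAs and microRNAs include it. The bars count a gene by any of its starts and the line counts single positions, so they are not matched for class or number of starts.

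The strongest peak at a non-coding start belonged to lncRNA:CR44619 on the X chromosome, a gene with 2 exons. It spanned 12750862 to 12751628, 472 bp upstream of the start, with a joint signal of 3164, rank 5 in the joint list, and signals of 1689 in replicate 1 (rank 10) and 1508 in replicate 2 (rank 4). A second peak, on the downstream side of the same start and just outside the limit, had a joint signal of 2885 (rank 9) and ranked 16 in replicate 1 and 9 in replicate 2. The start of CR44619 thus lay between 2 peaks of rank 5 and 9, 5078 and 6051 bp from the nearest protein-coding start, that of CG4004.

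Second was lncRNA:CR31044 on 3R, whose transcript holds the hairpins of mir-279 and mir-996, microRNAs that share a seed and act in neuronal fate in Drosophila. Its peak, from 29214252 to 29214604 with the summit 122 bp upstream of the start, had a joint signal of 2203 (rank 29), 1135 in replicate 1 (rank 39) and 1082 in replicate 2 (rank 30). A weaker peak inside the gene, 372 bp before the mir-279 hairpin, had a joint signal of 239, with 106 in replicate 1 and 132 in replicate 2.

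The other peaks of the 20 strongest had joint signals from 815 to 1618. In an intron of LpR2, which encodes a lipophorin receptor, lncRNA:CR46102 had a peak at 151 bp downstream of its start (3R, joint signal 1618, 990.1 in replicate 1 and 633 in replicate 2). CR44339, near the Polycomb group gene Psc, had one 136 bp upstream (2R, 1510, with 622 and 887 in replicates 1 and 2). CR45668, whose peak lay 685 bp from the actin gene Act5C, had one 187 bp upstream (X, 1475, with 861 and 611 in replicates 1 and 2).

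The antisense RNA with the strongest peak was asRNA:CR46145, opposite FER, a gene for a protein tyrosine kinase. Its summit lay 8 bp from the start (3R, 9393726 to 9394064, joint signal 1281, 691 in replicate 1 and 590.2 in replicate 2). CR44676 (3L, joint signal 1462) and CR44363 (3L, 1316) stood above it, and CR43626 (3L, 1075), CR45595 (3R, 1054, near l(3)neo38), CR44867 (2L, 1047, in beat-Ib) and CR46036 (3R, 1040, in osa, a subunit of a chromatin remodelling complex) followed. The peak at CR46036 differed most between libraries among the 20, with 307 in replicate 1 (rank 822) and 739 in replicate 2 (rank 94).

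CR44742 near the clock gene vri (2L, 959), CR45541 near the hexokinase gene Hex-A (X, 959), CR45243 near fng, which encodes a modifier of Notch (3L, 897), and CR45568 (3R, 883) all had summits 100 to 276 bp upstream of their starts. CR45997 in mbl, a splicing regulator (2R, 842), CR44222 in the chromatin remodeller kis (2L, 834), and CR45325 in Sesn (2R, 825) had theirs 51 to 364 bp downstream, and that of CR42657 near nej (X, 815) lay 461 bp upstream. All 20 ranked within the first 822 in replicate 1 and the first 721 in replicate 2.

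Of the 16 named non-coding genes looked up that the annotation holds, 2 had a counted peak, beside 8.18% of all distal non-coding genes, and nothing is read from so short a list. Hsromega, a heat-shock inducible nuclear RNA that organizes RNA-binding proteins into speckles, had one inside the gene, 198 bp after a start (3R, 21296155 to 21296491), with a joint signal of 815, 418 in replicate 1 and 394 in replicate 2. The piRNA cluster flam, whose RNA silences transposons in the follicle cells of the ovary, had one 150 bp upstream (X, 21631551 to 21631930), with a joint signal of 200.4, 106 in replicate 1 and 88.0 in replicate 2, in the lower part of the list at rank 4044. The let-7 complex RNA let7C had its nearest joint summit 561 bp from the start (joint signal 1244, rank 174) and 7 joint summits inside the gene, which spans 17416 bp. Hsromega, which spans 21710 bp, had 2 inside, and neither number was compared with equally long stretches. The nearest joint summits of yar and marge lay 778 and 508 bp away.

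At the remaining genes of the list the nearest joint summit lay between 1379 and 50466 bp away. Among them were roX1 (4545 bp) and roX2 (1379 bp), the RNAs of the dosage compensation complex, the bithorax complex RNAs bxd (25692 bp) and iab8 (18666 bp), cherub (13092 bp), acal (2213 bp), and the RNA subunits of RNase P (3930 bp) and RNase MRP (3421 bp). CRG (4589 bp), noe (14822 bp) and sphinx (50466 bp) were the rest.

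Genes that carry microRNAs or snoRNAs had a peak in 9 of 42 cases (21.4%, 10.3 to 36.8%), against 179 of 2255 other distal non-coding genes (7.94%, 6.86 to 9.13%). The comparison was added after the values were seen, was not tested, and rests on 9 genes. Gene length and the number of starts were not matched between these groups, and a gene with more starts has more places to be counted. Apart from CR31044 and Hsromega, which holds mir-4951, they include CR43626, the host of mir-282, with 2 peaks near its 3 starts. The first (3L, 3248691 to 3249124, in an exon of CG43389) had a joint signal of 1075, 521 in replicate 1 and 546 in replicate 2, and the second 388, with 192 and 213 in replicates 1 and 2.

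CR43650, the host of mir-8, had 2 overlapping peaks 212 and 7 bp upstream of a start, with joint signals of 321 and 182, and both overlapped the same peak in each library (197 in replicate 1 and 135 in replicate 2). CR43857, the host of mir-275, had a joint signal of 287 (85.8 in replicate 1 and 191 in replicate 2) and CR46006, the host of mir-276a, 202 (120.2 and 83.9 in replicates 1 and 2). CR43651, the host of mir-14, had 153 (96.1 and 47.6 in replicates 1 and 2) and CR43314, the host of mir-bft, 147 (94.95 and 45.8). The signals at these hosts thus went from 147 to 2203. The host asRNA:CR46194, which holds the mir-281 pair and is outside the 42 because its own start lies near a protein-coding start, had a joint signal of 149.

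Of the 7 snoRNA hosts, 4 had a start away from protein-coding starts and 1 of these had a counted peak (25%, 0.631 to 80.6%), beside 8.18% of all distal non-coding genes. Uhg4, which holds 7 snoRNAs, had it 35 bp upstream of its start with a joint signal of 510, and it was higher in replicate 1 (359, rank 616) than in replicate 2 (148, rank 2643). Uhg1, Uhg3 and Uhg7, also away from protein-coding starts, had none, and Uhg2, Uhg5 and Uhg8 lay within 500 bp of a protein-coding start and had no joint summit within 500 bp either.

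At 12 microRNAs the nearest annotated start was that of the hairpin or of a mature RNA. Joint signals went from 671 at mir-9377, inside Tis11, and 530.0 at mir-2491, inside fog, to 147 at mir-4914, inside CG31689. The others were mir-4962 in Tlk (322), mir-279 (239), mir-275 (237), mir-276a (234), mir-274 (207), bantam (173), mir-92b in jigr1 (167), mir-4968 in Mob2 (166) and mir-4946 in tup (159). The bantam microRNA, which promotes growth and represses the cell death gene hid, had its peak 378 bp downstream. The start of its annotated host transcript CR43334 lay 505 bp from another joint summit (signal 192). Apart from mir-274, all of these hairpins lie in a larger gene on the same strand, protein-coding or not.

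Deposited signal had a median close to that of other distal peaks and a higher upper quartile. It had a median of 241 (quartiles 174 and 478, highest 3164) at non-coding starts, against 244 (quartiles 175 and 399, highest 3510) at other distal joint peaks and 256 (quartiles 177 and 444, highest 4557) at joint peaks within 500 bp of protein-coding starts. The strongest 10% of the joint list held 25 of the 196 (12.8%), against 8.43% of other distal peaks and 12.8% of those at protein-coding starts. Of the 196, 12 had a signal over 1000, and the other distal peaks over 1000 were not counted.

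With the distal summits split into 5 classes of signal, from the strongest, 51, 33, 27, 44 and 41 were at non-coding starts, at folds of 2.82, 1.88, 1.56, 2.51 and 2.34, with no steady order. Below the joint list, pooled peaks ranked 6271 to 12000 gave 1.65-fold (1.38 to 1.94), those ranked 12001 to 20000 gave 1.40-fold and those ranked 20001 to 30000 gave 1.42-fold. These 3 folds were below that of the joint list, and their intervals lay above 1.

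**Figure D4:**
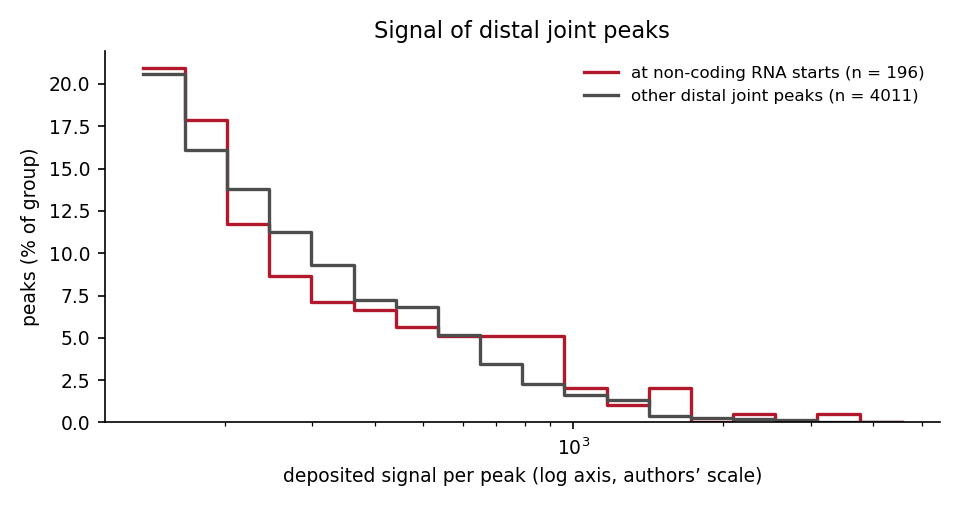
Distribution of the deposited joint signal (x axis, log scale, in the authors' units) as the percentage of each group (y axis), for the 196 peaks at non-coding RNA starts and the 4011 other distal joint peaks. The medians are 241 and 244, and the upper quartiles 478 and 399.

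Overlap with both libraries was high, but the joint list was itself filtered by how well peak ranks repeat between these libraries. The overlap and the correlations below are therefore a description and not separate evidence of replication. Of the 196, 190 overlapped peaks of replicate 1 and of replicate 2, full lists taken (96.9%, 93.5 to 98.9%), against 97.2% of other distal joint peaks and 92.4% of those at protein-coding starts, and 4 overlapped one in replicate 1 only and 2 in replicate 2 only. Taking from each library only as many strongest peaks as the joint list holds, 155 overlapped both (79.1%), against 75.8% of other distal peaks. Across the 190, Spearman's rho between the signals of the libraries was 0.73 and Pearson's r on the log2 scale was 0.79, against 0.68 and 0.74 across 3897 other distal peaks. These are correlations across peaks of 1 pair of libraries, which share the control used in calling, and peaks are not replicates.

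Ratios of the libraries (log2 of replicate 2 over replicate 1, minus the median of all joint peaks found in both) had a median of 0.20 with an SD of 0.66 at non-coding starts, against 0.01 and 0.68 at other distal peaks. GC content within 50 bp of the summit averaged 31.9% and 32.1% in these groups, and its part in the ratio was not tested. The largest ratios towards replicate 1 were at CR46450 (−1.79, 136 in replicate 1 and 40.5 in replicate 2), CR44917 (−1.43) and CR45532 (−1.41). Those towards replicate 2 were at CR44661 (1.97, 36.7 in replicate 1 and 148 in replicate 2), CR44186 (1.77) and CR45421 (1.76). All 6 had joint signals between 142 and 333, far below the top of the list.

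**Figure D5:**
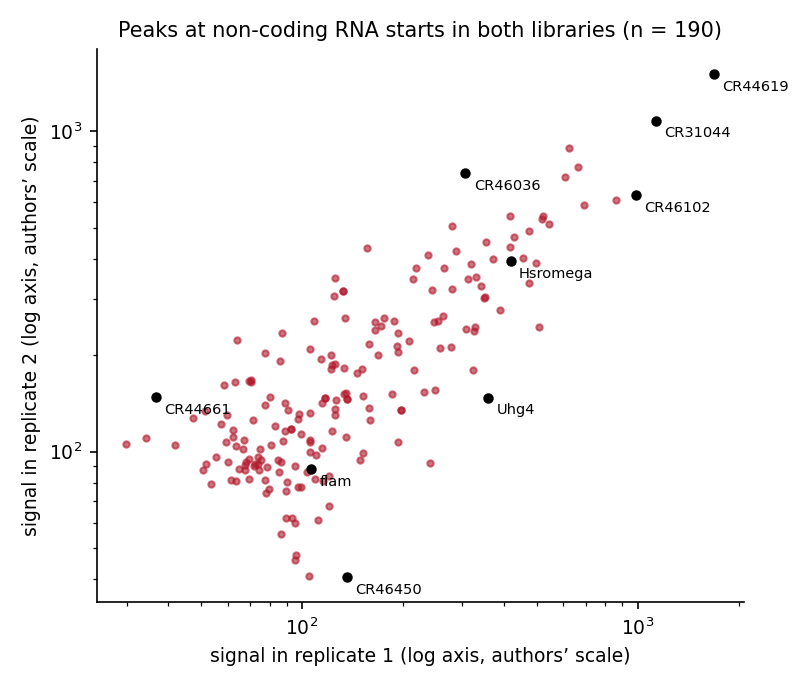
Signal in replicate 1 (x axis) against replicate 2 (y axis), both on log scales in the authors' units, for the 190 peaks at non-coding RNA starts that overlap a peak in both libraries with 1 point per peak and some genes named. Signals in replicates 1 and 2 were 1689 and 1508 at CR44619, 307 and 739 at CR46036, 36.7 and 148 at CR44661, and 136 and 40.5 at CR46450.

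The base composition of the summits was close to that of other distal summits. GC content within 50 bp of the summit was 31.9% ± 9.52 (SD over 196 summits), against 44.1% in windows 400 bp away, and 32.1% ± 8.06 at other distal summits, against 44.4% in their own flanks. Short sequences were searched on both strands of the same windows. TAAT occurred at 75.5% of the summits (68.9 to 81.4%), against 53.1% of their flanks and 78.7% of other distal summits. The AT-rich ATATTA was at 20.4%, against 8.42% of flanks and 22.3% of other distal summits, and TAAACA, a core of forkhead factors, at 16.3%, against 7.65% and 13.6%. ATATTA contains ATTA and so overlaps the TAAT count. Flanks were richer in GC than summits, and the part of composition in these values was not tested.

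TAATTA, the palindromic homeodomain core, which contains TAAT, was at 20 of 196 summits (10.2%, 6.35 to 15.3%), against 6.12% of flanks and 9.45% of other distal summits. In the stronger 50% of the joint list it was at 16 of 97 (16.5%, 9.73 to 25.4%), against 9.88% of other distal summits of that strength. In the weaker ones it was at 4 of 99 (4.04%, 1.11 to 10.02%), against 9.03%. GC content was 29.2% in the stronger and 34.5% in the weaker of the 196, so composition moved with this split. TAATTG, which also contains TAAT, was at 11.7%, against 10.5% of flanks and 10.9% of other distal summits.

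GAGAGAG, a sequence bound by the GAGA factor, was at 8 of 196 summits (4.08%, 1.78 to 7.88%), against 2.04% of flanks. At other distal summits it was at 1.37% (1.03 to 1.78%), below the 3.15% of their own flanks, and the intervals of the summits just touch. It is picked out from several sequences searched and rests on 8 summits. CACACACA was at 0 of 196, which allows a share of up to 1.86%, against 4.85% of flanks and 1.37% of other distal summits. TATCGATA was at 0 as well, CAGGTAG at 1 and AGATAAG at 3 (1.53%, against 1.80% of other distal summits). Within the same windows TATAAA was at 21.4% and TCAGT at 19.4%, against 22.4% and 18.4% of other distal summits.

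Starts themselves were searched on the sense strand, leaving out microRNAs. TATAAA between 40 and 15 bp before the start was at 8 of 183 starts with a joint peak (4.37%, 1.91 to 8.43%), against 2.80% of 1997 starts without one (2.13 to 3.63%) and 6.87% of protein-coding starts. TCAGT within 10 bp of the start, part of the initiator, was at 5.46% of starts with a peak, against 5.46% of those without and 13.1% of protein-coding starts. The intervals for starts with and without a peak overlap for both sequences.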

How the data were processed

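Peak lists in narrowPeak format were used for replicate 1, replicate 2, the pool of both and the joint list. The first 3 hold 30000 peaks each. Per the deposited text descriptions, peaks were called on dm6 against a shared control, with a caller not given in the sources used here. As deposited, signal is the authors' score per peak, of unknown scaling, used to describe, rank and filter peaks within a list. Between libraries it was compared only as correlations, as ratios centred on their median and as values given side by side. Whether the scaling is the same in both libraries is not known, so these comparisons are descriptions. Every joint peak carries the same −log10 q-value in the deposited list, so it was not used. Read depth is unknown, so the precision of a single signal is unknown.

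Starts came from the Ensembl annotation, release 115, with 2780 genes of biotype ncRNA on the arms used, after 481 mature microRNA entries, which the annotation lists as genes, were joined to their microRNA. A mature start still counted as a start, and 1 of the 196 peaks rests on one. Classes follow the gene names. Equally distant bases are all called bases of the arms in 14 classes of distance from a protein-coding start, weighted to the distal summits. GC comparisons used 10 classes. Overlap with a library peak needed 1 bp. Sequence is the RefSeq Release 6 assembly. The fold was tested on simulated data. Python 3.11.15, numpy 2.4.6, scipy 1.17.1, pandas 2.3.3 and matplotlib 3.10.9 were used. No p-value was computed: the series has 1 group of 2 libraries, and peaks are not replicates.

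The peaks, gene lists and sequences were chosen with earlier results of these data known. Genes named are those at the 20 strongest peaks, a list of known non-coding genes (9 names of it were not found in the annotation) and snoRNA hosts, genes with 2 peaks (at most 5), the 3 largest ratios in each direction, hosts of microRNAs or snoRNAs, and the 3 peaks on either side of each limit. The microRNA peaks and the host of bantam were added after their values were seen.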

Additional observations from a re-analysis of the deposited data

How the results depend on the processing

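The fold over equally distant bases was above 1 under each alternative it was computed for. With windows of 250 and 1000 bp there were 108 and 346 such peaks, 2.57% and 8.22% of distal summits, 2.37-fold and 2.03-fold over equally distant bases, with 4.66% and 12.7% of non-coding genes. The stronger 50% of the joint list gave 97 peaks, 4.18% of genes, a median signal of 478, 100% in both libraries, 16.5% with TAATTA and 14.4% within 100 bp of the start. Leaving out 1 library in turn gave 177 to 193 peaks, 4.27% to 4.57% of distal summits, 2.05-fold to 2.18-fold, 7.66% to 8.18% of genes, 8.47% to 9.33% with TAATTA and 18.7% to 19.2% within 100 bp. Bases in the same kind of feature gave 2.09-fold. With 1 start per gene, 17.0% lay within 100 bp. In both libraries were 87.8% when at least 50% of the joint peak had to overlap and 79.1% when each library was cut to as many peaks as the joint list. TAATTA was at 17.3% in windows of 100 bp on either side, against 12.0% of flanks of that width. Alternatives added after seeing the data, without mature microRNA entries (195 peaks, 2.22-fold), without microRNA genes (184 peaks, 2.28-fold) and with GC class and feature together (2.24-fold), moved little. No paired analysis was possible because there is 1 group.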

Other observations

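Values in this part were looked at after the counts at starts were known and were not tested. The share of distal summits at non-coding starts differed with the distance from the nearest protein-coding start. From 1000 to 6000 bp away, in classes of 1000 to 1500, 1500 to 2000, 2000 to 3000, 3000 to 4000 and 4000 to 6000 bp, the folds over equally distant bases were 2.60, 2.44, 2.89, 3.06 and 2.75, each with an interval above 1. From 500 to 750 bp and from 750 to 1000 bp the folds were 1.59 (0.877 to 2.63) and 1.11 (0.448 to 2.25), on 14 and 7 summits, and from 6000 to 8000 bp it was 1.29 (0.591 to 2.42) on 9. Further away it was 1.87 (1.05 to 3.05) from 8000 to 12000 bp and 2.21 (1.07 to 3.99) from 12000 to 16000 bp, on 15 and 10 summits. From 16000 to 24000, 24000 to 32000 and 32000 to 64000 bp it was 1.604 (0.649 to 3.26), 1.68 (0.348 to 4.79) and 4.07 (0.845 to 11.5), on 7, 3 and 3 summits. The fold was above 1 in each of these classes, and the intervals overlap.

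Some of these RNAs had weak peaks of the pooled list near a start that were not in the joint list. The nearest pooled summit lay 22 bp from the start of marge (signal 37.9, rank 23850), 65 bp from a start of iab8 (37.6, rank 24058), 176 bp from a start of bxd (31.6, rank 28967) and 177 bp from a start of yar (39.9, rank 22561). It lay 245 bp from the start of noe (41.7, rank 21545) and 248 bp from that of the RNase MRP RNA (81.4, rank 10823). At the snoRNA hosts Uhg5 and Uhg8 it lay 12 bp (108, rank 8087) and 243 bp (125, rank 6913) from the start. Over all non-coding genes with a start away from protein-coding starts, 27.5% had a distal pooled summit within 500 bp, against the 8.18% with a joint one. The pooled share at equally distant bases was not computed.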
